A study of Rattus norvegicus with 2 samples.

Results

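The cells described here are type 2 innate lymphoid-like cells of the rat lung, picked by a gate on single-cell counts. A barcode entered the gate when it had at least 200 genes and a unique molecular identifier (UMI, 1 counted transcript molecule) of at least 2 of Il1rl1, Gata3 and Il2ra, and none of Cd3e, Cd3d, Cd3g, Cd79a, Cpa3 or Ms4a2. The gate held 185 of 33546 barcodes: 50 of 21096 in the control library and 135 of 12450 in the library from the lung exposed to a gas explosion. Both libraries came from lung tissue of rats kept specific-pathogen-free, and the sample labels name 1 as control and 1 as explosion, while the treatment text of both names the gas explosion. Strain, sex, age, time after exposure and animals per library are not stated by the labels. The tissue was digested with enzymes, red blood cells were lysed, dead cells were removed with magnetic beads, and cells were captured in droplets on the 10x Genomics platform. With 1 library per group there was no replicate and no test, so every interval below is a 95% interval that covers counting error only, and exposure cannot be told apart from any other difference between the 2 preparations.

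Type 2 innate lymphoid cells are tissue-resident lymphocytes without antigen receptors. They carry the receptor for the epithelial alarmin interleukin 33, encoded by Il1rl1, depend on the transcription factors GATA3 and RORA and on interleukin 7, and respond to alarmins, lipid mediators and neuropeptides. In the lung they are known as early sources of interleukin 5, interleukin 13 and amphiregulin, which act on eosinophils, mucus-producing epithelium and tissue repair.

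The gate genes chose the cells, so their values are a description only, and in a cell of about 500 UMIs the 2 UMIs that the rule needs already set a high CPM. Il1rl1 gave 88 UMIs in 43 of the 50 control cells and 288 UMIs in 120 of the 135 explosion cells. Gata3 gave 123 UMIs in 46 control cells and 177 in 113 explosion cells, and Il2ra, the high-affinity interleukin 2 receptor chain, 61 in 29 and 104 in 79. All 3 genes were seen together in 18 control and 42 explosion cells, Il1rl1 with Gata3 in 21 and 56, Gata3 with Il2ra in 7 and 15, and Il1rl1 with Il2ra in 4 and 22. Just inside the threshold, 15 control and 34 explosion cells had exactly 2 gate UMIs. Just outside it, 695 control and 399 explosion barcodes had exactly 1 gate gene and none of the excluded genes. These neighbours held less of other genes of the lineage: Rora stood at 24.2 CPM (UMIs of a gene scaled to the total UMIs of the summed cells) in control and 194 in explosion, against 119 and 1621 in the gated cells, and Hpgds at 4.21 and 59.6 against 187 and 916. Before the exclusion, 104 control and 156 explosion barcodes had 2 or more gate genes. A Cd3 UMI removed 42 and 13 of them and Cd79a alone 12 and 8, while the mast cell genes Cpa3 and Ms4a2 removed 0 in either library.

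The libraries differed greatly in depth, and the gated cells did so too. The median was 2470.5 UMIs per control cell (592 to 51695) and 492 per explosion cell (235 to 1516), with 74 of the 135 explosion cells under 500 UMIs. In 14 of the 50 control cells, 5 or more UMIs came from 13 genes of macrophages, epithelium, fibroblasts and mesothelium (Mrc1, Fabp4, Cd68, Ctss, Msr1, Epcam, Krt8, Krt18, Krt19, Foxj1, Col1a1, Col3a1 and Msln). These mixed barcodes had a median of 10053 UMIs and held 192609 of the 267805 UMIs of the control gate. No explosion cell met this mark, which was set on counts after the data were seen and is harder to reach at lower depth. No doublet caller was run. Counts of called genes between the libraries are given with all cells and again without the mixed barcodes, which leaves 36 control cells with 75196 UMIs beside 135 explosion cells with 70955 UMIs. The club cell secretoglobin Scgb1a1 made up 19.8% of the UMIs of all control gated cells, 2.88% without the mixed barcodes and 1.4% in the explosion cells. Whether these UMIs came from free RNA or from other cells in the same barcode was not tested. Of the barcode sequences, 85 occurred in both libraries, and 2 of these belong to a gated cell in either library.

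**Figure D1:**
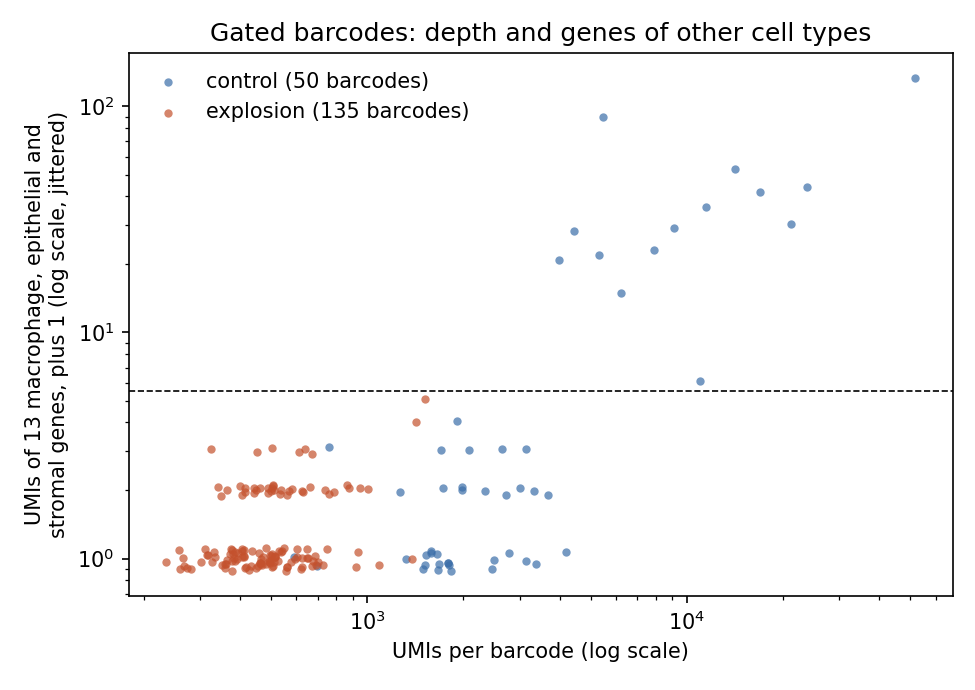
UMIs per gated barcode (x, log scale) against the UMIs of the 13 macrophage, epithelial and stromal genes in it, plus 1 (y, log scale, jittered), for 50 control and 135 explosion barcodes. The 14 control barcodes above the dashed line hold 5 or more such UMIs and between 3989 and 51695 UMIs in all; the explosion barcodes all lie under the line and reach at most 1516 UMIs.

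The gated cells were a larger share of the explosion library. They made up 0.237% of control barcodes (interval 0.176 to 0.312) and 1.08% of explosion barcodes (0.910 to 1.28), a difference of 0.847 percentage points and a ratio of 4.58. The lower depth of the explosion library works against detecting 2 of 3 genes. It also makes a UMI of the excluded genes easier to miss, which works the other way. The share was therefore recomputed at equal depth. When every barcode was thinned to 500 UMIs before gating, with shallower barcodes left out (6744 explosion barcodes remained), 12 control barcodes (0.0569%) and 54 explosion barcodes (0.801%) passed, a ratio of 14.1. With the mixed barcodes taken out of the gated cells only, the shares were 0.171% of 21096 control and 1.08% of 12450 explosion barcodes, a ratio of 6.35. The denominators were unchanged, and gated cells were lost in control only. With all 3 gate genes required, the shares were 0.0853% and 0.337%, a ratio of 3.95. The intervals of the 2 libraries did not overlap under any of the 9 settings.

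**Figure D2:**
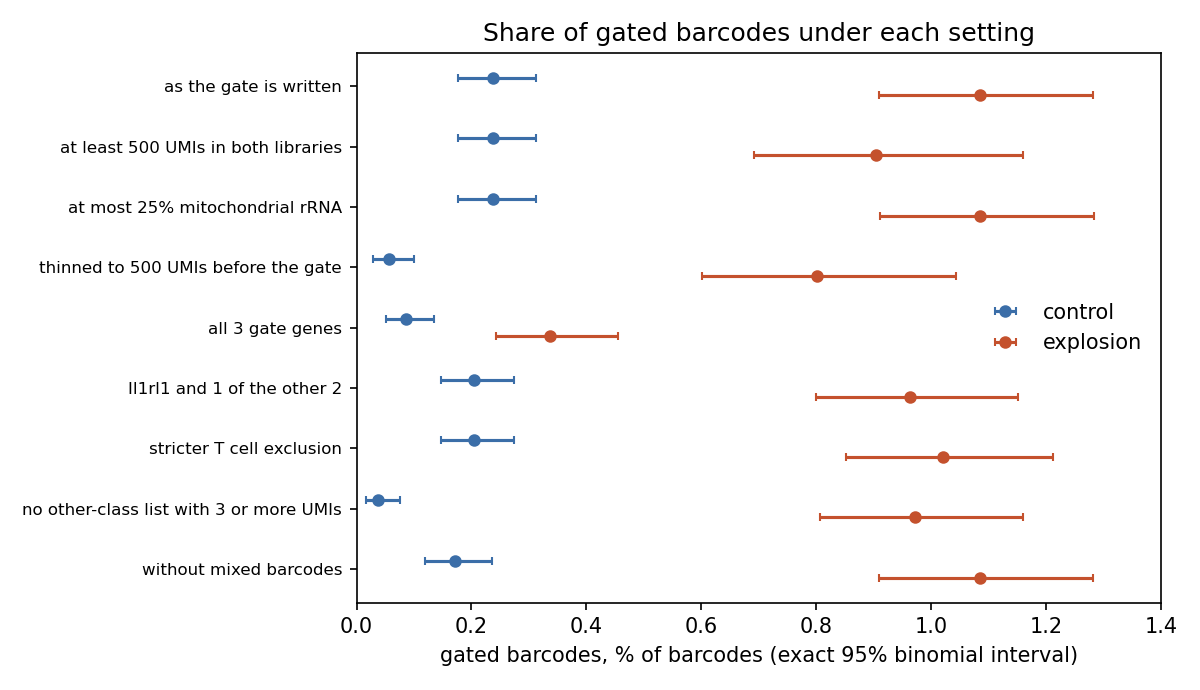
Share of barcodes in the gate (x, percent, with exact binomial intervals) in the control and explosion libraries under each of 9 settings (y). The explosion share lies above the control share in each setting, between 0.337% and 1.09% against 0.0379% to 0.237%.

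Other lymphocytes differed in direction. Barcodes with 2 or more Cd3 genes, called the T cell gate here, were 6.71% of control and 1.25% of explosion barcodes, and 1.99% and 0.905% after thinning to 500 UMIs. The B cell gate made up 4.00% and 1.26%, and the natural killer (NK) cell gate 2.34% and 2.76%. Among lymphoid barcodes, meaning the gated cells plus the gates for T, B and NK cells, the gated cells were 1.79% in control and 17.0% in explosion. A share of barcodes falls when other cells are recovered more often, so more type 2 innate lymphoid-like cells and fewer other cells cannot be told apart in these 2 libraries.

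Cells without a Cd3 UMI could also be T cells whose Cd3 transcripts were missed, and how often Cd3 was missed was measured. Of barcodes with at least 2 of the T cell genes Cd5, Cd6, Cd8a, Cd8b, Cd27 and Themis, 11.1% of 682 in control and 52.8% of 178 in explosion lacked a Cd3 UMI. None of these barcodes without Cd3 was in the gate, in either library. Such a barcode would need 2 of these T cell genes and 2 gate genes at once. The overlap of 0 therefore cannot tell how many gated cells are T cells without a Cd3 UMI. The T cell genes used here also leave out Cd4. With Cd4, Cd8a, Cd8b and Foxp3 required to be absent as well, 43 control and 127 explosion cells remained in the gate. At least 1 UMI of Cd5, Cd6, Cd8a, Cd8b, Cd27 or Themis was present in 4 control and 4 explosion gated cells. The constant genes of the T cell receptor (Trac, Trbc1, Trbc2, Trdc and Trgc1) are not listed among the genes used here, so they could not be read. Foxp3, the factor of regulatory T cells, had UMIs in 1 gated cell of each library.

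Against genes that the gate did not use, the cells were compared with T cells over 26 listed genes known from type 2 innate lymphoid cells. A gene was called when the interval of its CPM ratio lay wholly past 1.5-fold, among genes with at least 10 UMIs in the 2 sums. Over the T cell gate, 55 of 3790 genes tested in both libraries were called higher in both (1.45%) and 34 lower in both (0.897%). Without the mixed barcodes these were 74 of 3651 (2.03%) and 36 (0.986%), and the values that follow leave those barcodes out. In single libraries with all cells, 1.2% of genes were called higher and 0.927% lower in control, and 3.0% and 1.79% in explosion; without the mixed barcodes 0.714% were lower in control and 1.82% in explosion. Of the 26 listed genes, 8 of 21 tested in control were called higher without the mixed barcodes, beside 2.69% of all genes, and 1 lower, with a median log2 ratio of 1.21 beside 0.25. In explosion 2 of 11 were called higher, beside 2.94%, and 1 lower, with a median of -0.12 beside -0.04. For a list of T cell genes, 6 of 18 tested in control were called lower, beside 0.714%, and 1 higher. Their median was -2.36 beside 0.25. In explosion only 3 of 13 T cell genes were called lower, beside 1.82%, and 0 higher. Their median was -0.98 beside -0.04, so most of them were not set apart from T cells by the call. Because Gata3 and Il1rl1 chose the cells, this comparison describes them and does not test the label.

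Rora, the transcription factor required for the lineage, stood at 306 CPM in control gated cells and 35.2 in control T cells, a ratio of 8.68 (5.23 to 13.9), and at 1621 against 224 in explosion, a ratio of 7.23 (4.55 to 12). Hpgds, which encodes the synthase of prostaglandin D2, stood at 559 CPM against 3.69 in control T cells and at 916 against 81.5 in explosion T cells. Both genes were therefore far above the T cells of their own library. Hpgds was also above NK cells, where it stood at 8.46 and 4.06 CPM. Il17rb, the receptor chain for interleukin 25, had 11 UMIs in control and 6 in explosion cells and 0 in the T cells of either library. That makes it at least 119-fold higher in control and at least 2.77-fold higher in explosion, with the T cell sum set at the 3 counts that a count of 0 allows. Nmur1, the receptor for neuromedin U, a neuropeptide that activates these cells, had 10 UMIs (133 CPM) in control and 9 (127 CPM) in explosion, against 1.64 CPM in control T cells and 0 UMIs in explosion T cells.

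Il7r, which the lineage shares with T cells, was called higher than in T cells in control (652 against 285 CPM, ratio 2.29, 1.67 to 3.05) and not called in explosion (775 against 377, ratio 2.06, 1.33 to 3.21). Bcl11b and Ets1, transcription factors of both T cells and innate lymphoid cells, did not differ from T cells by the call in either library: Bcl11b ratios were 0.732 and 0.914, and Ets1 ratios 0.923 and 0.791. Tcf7, which is abundant in naive T cells, was called lower than in T cells in both libraries, at 173 against 504 CPM and 225 against 998.

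The genes furthest above T cells in both libraries were receptors, enzymes and a cytokine. Lif, leukemia inhibitory factor, was 146-fold higher in control (30.2 to 1389.2) and 29.0-fold higher in explosion (4.67 to 1201). The lipid mediator receptors Cysltr1, for cysteinyl leukotrienes, and Ltb4r, for leukotriene B4, were 72.1-fold and 51.0-fold higher in control and 33.2-fold and 22.1-fold higher in explosion. Gpr35, a G protein-coupled receptor, was 22.5-fold higher in control and at least 8.30-fold higher in explosion, where T cells had 0 UMIs. Rdh10, a retinol dehydrogenase, was 51.4-fold and 23.5-fold higher, and Olah, a thioesterase of fatty acid synthesis, 227-fold and 33.2-fold, each against 1 UMI of Olah in the T cells of either library. Explosion T cells summed to 98148 UMIs, so these explosion ratios rest on 0 or 1 T cell UMI and their upper bounds are wide.

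Genes furthest below T cells were those of cytotoxic and circulating T cells. Ms4a4c, Ms4a6c and Klrd1, an NK and cytotoxic T cell receptor, had 0 UMIs in gated cells of both libraries; Klrd1 was at least 3.40-fold lower in control and at least 2.89-fold lower in explosion. Cd8a had 2 UMIs in control and 1 in explosion gated cells, against 1005 and 39 in T cells. S1pr1, which lets lymphocytes leave tissue, had 0 UMIs in control, at least 6.86-fold lower than in T cells, and stood at 113 against 458 CPM in explosion. Lef1, Cd27 and Ctsw were also called lower in both libraries.

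**Figure D3:**
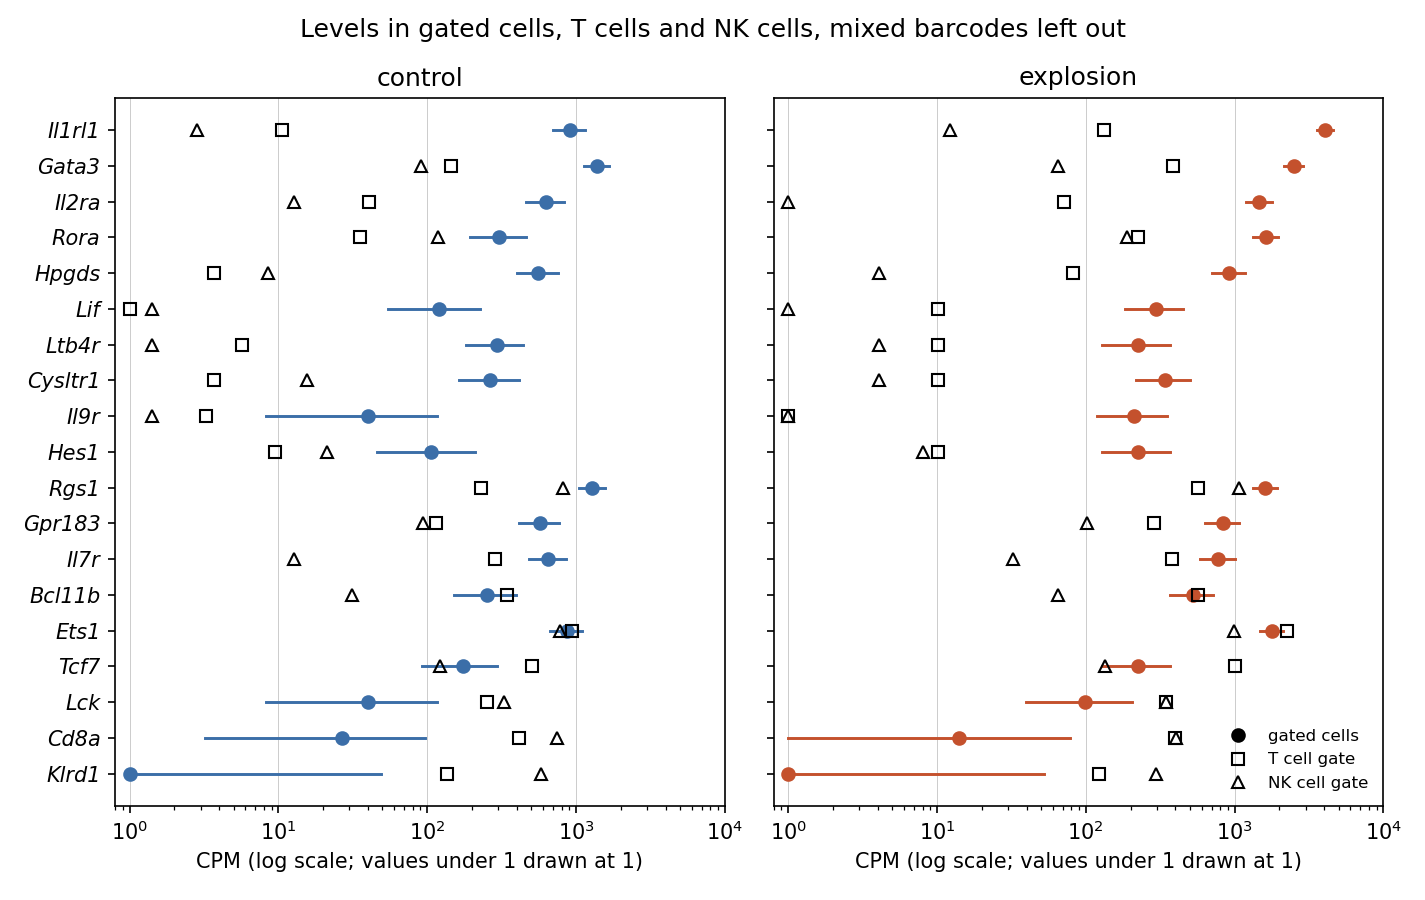
CPM (x, log scale, values under 1 drawn at 1) of the 3 gate genes, other lineage genes and T or NK cell genes (y) in gated cells (filled circles with exact counting intervals), the T cell gate (squares) and the NK cell gate (triangles), mixed barcodes left out. Rora, Hpgds, Lif, Ltb4r and Cysltr1 lie to the right of T cells in both libraries, Bcl11b and Ets1 lie beside them, and Cd8a and Klrd1 lie to the left.

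Markers of other cell types were uneven in the gated cells. Of 11 listed mast cell and basophil genes found, Kit, which some innate lymphoid cells also carry, had 3 UMIs in control and 7 in explosion; Fcer1a, Tpsab1 and Cma1 had 0 in both. The list for type 3 innate lymphoid cells summed to 14.1 CPM in explosion, 1 UMI of Lta. In control its main gene was Ccr6, with 8 UMIs in 3 cells. Il23r, a receptor chain of these cells, had 1 UMI in control and 0 in explosion. NK list genes were uneven across control cells: Ccl5 had 44 UMIs without the mixed barcodes, of which 43 came from 3 cells, and Gzma had 11 in 3 cells. The macrophage list summed to 13555 CPM over all control gated cells and 2114 in explosion, the epithelium list to 13110.3 and 719, and the stroma list to 265 and 620.1. Most of the macrophage sum was Lyz2, which stood at 12128 CPM over all control cells, 1144 without the mixed barcodes and 1593 in explosion. The collagen gene Col3a1 had 1 UMI in control without the mixed barcodes and 18 in 16 explosion cells.

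Few transcripts of the known products of type 2 innate lymphoid cells were counted. Il5 gave 2 UMIs in 2 control cells and 0 in explosion, and Il13, Il4, Il9, Areg and Csf2 gave 0 in the gated cells of both libraries. A count of 0 allows up to 11.2 CPM over all 50 control cells and 42.3 CPM over the explosion cells. Over the control cells without the mixed barcodes it allows up to 39.9 CPM. Lower levels were not detectable at this depth. In the whole libraries Il13 and Il9 had 0 UMIs, Il5 had 6 in control and 0 in explosion, and Areg had 186 and 31, none of them in gated cells. The neuropeptide genes Calca and Penk were also at 0 in gated cells. Of the 18 listed products, 9 had 0 UMIs in both libraries. Lif had 10 UMIs in 9 control cells and 21 in 15 explosion cells, and the growth factor gene Tgfb1 17 and 12 UMIs.

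Transcripts of signals that act on these cells were counted over each whole library. Il33, the ligand of the Il1rl1 receptor, had 5676 UMIs in 2287 control barcodes and 480 in 325 explosion barcodes, or 40.7 and 53.5 CPM of the 139473492 and 8968497 UMIs over all barcodes kept. Tslp, another epithelial alarmin, had 879 and 46 UMIs, or 6.30 and 5.13 CPM, and Il25 had 0 in both.

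Within the gated cells, explosion and control were compared gene by gene on summed UMIs. With all cells, 784 of 4948 genes were called higher in explosion (15.8%) and 211 lower (4.26%), with a median log2 ratio of 0.62 over all genes tested. Centred on that median, the split was 362 higher to 489 lower, and with ribosomal protein, mitochondrial and hemoglobin genes, Scgb1a1 and Rn45s left out of the CPM total it was 524 to 365. Without the mixed barcodes, 206 of 2848 genes were called higher (7.23%) and 132 lower (4.63%), with a median of 0.39. In the T cell gate without mixed barcodes, 9.7% of 10367 genes were called higher and 1.68% lower, with a median of 0.77. Values of single genes in this comparison leave the mixed barcodes out unless they say otherwise. The T cell ratio is printed beside the main values; whether the 2 ratios differ was not tested.

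Genes named by the size of their difference were led by Rn45s, the precursor of ribosomal RNA. It had 8 UMIs in control without the mixed barcodes (24 with them) and 291 in explosion, a ratio of 38.5 (19.3 to 90.1) against 20.8 in T cells. Slfn4, a Schlafen family gene, had 4 and 68 UMIs, the 68 spread over 45 cells, a ratio of 18.0 (6.72 to 68.0) against 4.49 in T cells. Birc3, an inhibitor of apoptosis and NF-kB target, had 4 and 32 UMIs, a ratio of 8.48 (3.01 to 33.0) against 6.42. Kdm6b, a histone H3 demethylase, had 12 and 46 UMIs, a ratio of 4.06 against 4.08, and Nktr 16 and 84, a ratio of 5.56 against 3.92. Ttc39a had 0 and 37 UMIs, at least 13.1-fold higher, and Trnk 0 and 20, at least 7.07-fold higher, with T cell ratios of 92.0 and 24.0. Ins2, Papolg and Trnv were called higher as well, with T cell ratios of 13.3, 12.4 and 37.8. Ribosomal protein genes took 26.8% of the control UMIs without mixed barcodes and 10.6% of the explosion UMIs, and mitochondrial ribosomal RNA a median of 1.2% and 3.70% per cell; their part in these ratios was not tested.

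The 12 genes named as lowest in explosion over all cells included 4 airway secretory genes. Scgb3a1 had 82 UMIs in control without the mixed barcodes and 3 in explosion, Wfdc2 53 and 4, and Scgb3a2 71 and 13, while the T cell gate gave ratios of 0.0708, 0.0838 and 0.0902 for the same genes. Scgb1a1 was 0.484 times the control level (0.448 to 0.522) without the mixed barcodes and 0.0706 times with them. Of the 12 genes named as lowest over all cells, these 4 were called lower without the mixed barcodes. Txn1, Cdc42ep3, Lyz2, Prdx5, Fth1 and Ftl1 were not, and Hspb1 and Fcgrt had too few UMIs.

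Among the 26 listed identity genes, 7 of 18 tested were called higher in explosion with all cells, beside 15.8% of all genes, with a median log2 ratio of 1.57 beside 0.62 for all genes. Without the mixed barcodes 2 of 17 were called higher, Rora and Ets1, beside 7.23%, and 0 lower, with a median of 0.08 beside 0.39. Rora rested on 23 UMIs in 11 control cells and 115 in 67 explosion cells, a ratio of 5.30 (3.36 to 8.69). At equal depth of 500 UMIs, 16.7% of 36 control cells (6.37 to 32.8) and 47.5% of 61 explosion cells (34.6 to 60.7) had a Rora UMI; unthinned, these were 30.6% and 49.6%. In B cells, which should lack the gene, the thinned share was 0.355% in control and 0 of 46 in explosion, which allows 6.52%, at median depths of 1349.5 and 398 UMIs before thinning. For the thinned shares of gated cells here and below, the cells passed the gate at full depth and were thinned afterwards. The gate itself was therefore not passed at equal depth. After thinning, Il1rl1 remained in 33.3% of control cells without mixed barcodes and 85.2% of explosion cells. T cells gave a Rora ratio of 6.36 (3.79 to 10.3) and an Ets1 ratio of 2.41 beside 2.07 (1.52 to 2.84) in the gated cells.

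The other lineage genes were not called once the mixed barcodes were left out. Il7r stood at 652 and 775 CPM (ratio 1.19, 0.795 to 1.79) and Hpgds at 559 and 916 (1.64, 1.10 to 2.48). With all cells their ratios were 3.92 and 4.91, both called. The thinned share with a Hpgds UMI was 22.2% in control without mixed barcodes and 32.8% in explosion, against 55.6% and 38.5% unthinned, with overlapping intervals; the B cell share was again 0.355% and 0 of 46. Il17rb, Nmur1, Cxcr6 and Ahr had ratios between 0.530 and 0.954 with intervals that include 1.

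Receptors showed a similar dependence. Of 24 listed cytokine receptor and signalling genes, 3 of 13 tested were called higher with all cells (Il2rg, Il9r and Il10ra) and 0 of 11 without the mixed barcodes, beside 15.8% and 7.23% of all genes. Il2rg, the common gamma chain, had 31 UMIs in control and 50 in explosion, a ratio of 1.71 (1.07 to 2.77). Il9r, the receptor for the growth cytokine interleukin 9, had 3 and 15 UMIs, a ratio of 5.30 (1.5 to 28.6) that fell just short of the call. The feedback regulators Socs1 and Cish were level between libraries, with ratios of 0.815 and 1.06, although Socs1 exceeded T cells 4.94-fold in control and 3.95-fold in explosion.

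Of 20 receptors and enzymes for neuropeptides and lipid mediators, 4 of 11 tested were called higher with all cells and 1 lower, beside 15.8% and 4.26% of all genes. With the mixed barcodes left out, 1 of 9 was called higher, beside 7.23%. It was Calcrl, which pairs with Ramp1 or Ramp3 as a receptor for calcitonin gene-related peptide or adrenomedullin: it had 3 UMIs in 3 control cells and 18 in 18 explosion cells, a ratio of 6.36 (1.86 to 33.7), against 2.84 (0.734 to 7.95) in T cells. Its partner Ramp1 stood at 625 CPM in control and 395 in explosion, a ratio of 0.631 (0.381 to 1.03), and Ramp3 at 146 and 183. Cysltr1 and Ltb4r did not differ by the call, with ratios of 1.27 (0.673 to 2.43) and 0.771 (0.378 to 1.54).

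**Figure D4:**
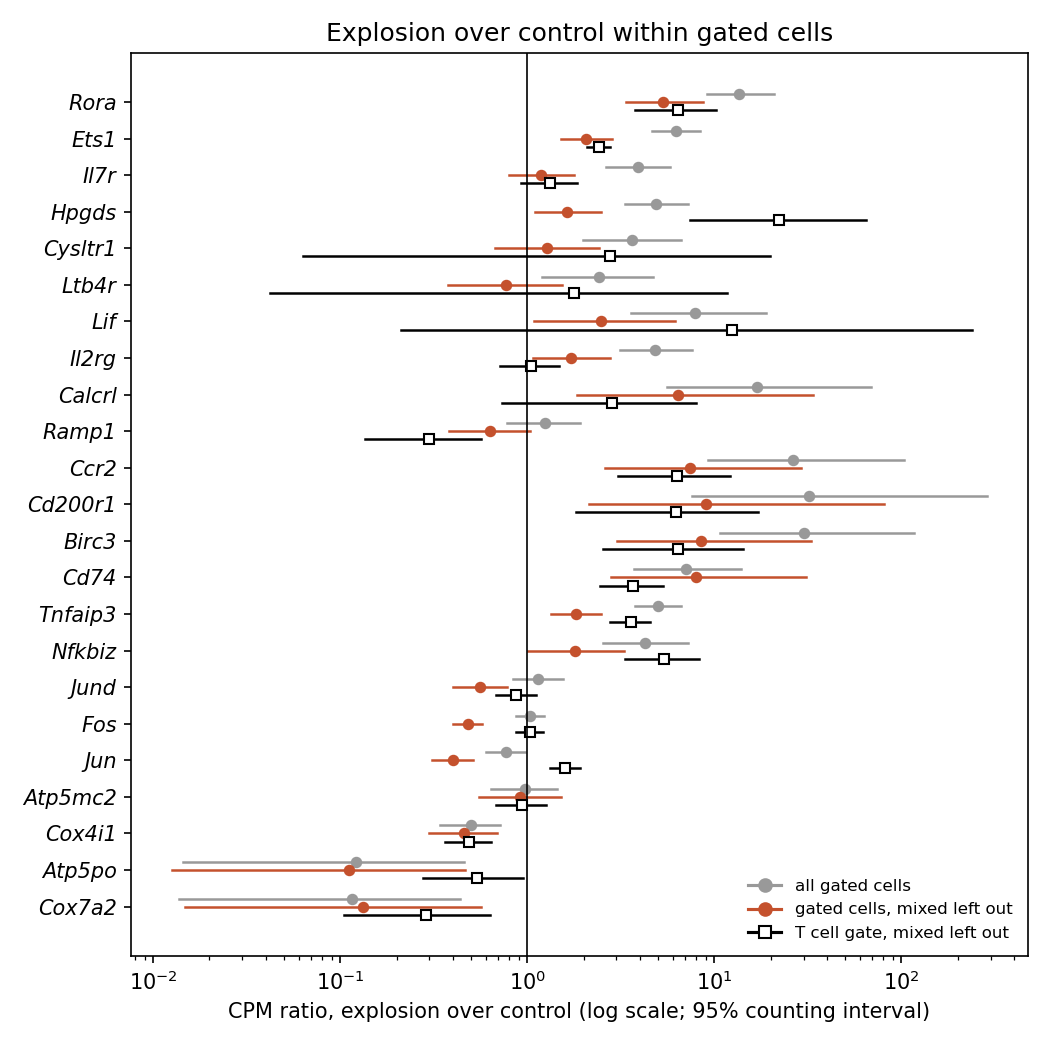
CPM ratio of explosion over control (x, log scale, with counting intervals) for lineage, receptor, activation, MHC class II and respiratory chain genes (y), in all gated cells (grey), in gated cells without mixed barcodes (red) and in the T cell gate without mixed barcodes (open squares). Il7r and Hpgds move from above 1.5 with all cells to intervals that reach below 1.5 without the mixed barcodes, while Rora, Ccr2, Cd200r1 and Birc3 stay to the right.

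Many immediate early and NF-kB feedback genes were higher in summed CPM in the gated cells than in T cells, more of them in control than in explosion. Of the 16, 13 were called higher than in T cells in control without the mixed barcodes and 6 in explosion, with medians of 2.06 and 1.02 beside 0.25 and -0.04 over all genes; 2.69% and 2.94% of all genes were called higher in these comparisons. Between libraries, 10 of 16 were called higher in explosion with all cells, beside 15.8% of all genes. Without the mixed barcodes 0 were called higher and 2 lower, beside 7.23% and 4.63% of all genes. The 2 were the AP-1 subunits Fos, at 5186 CPM in control and 2495 in explosion (ratio 0.481, 0.400 to 0.576), and Jun, at 3138 and 1254 (0.400, 0.310 to 0.512). In T cells the ratios were 1.03 (0.873 to 1.21) for Fos and 1.60 (1.33 to 1.90) for Jun, and 7 of the 16 genes were called higher, beside 9.7% of all genes; the difference from T cells was not tested. At equal depth the share of cells with a Jun UMI was 72.2% in control without mixed barcodes (54.8 to 85.8) and 32.8% in explosion (21.3 to 46.0), and unthinned 86.1% and 43.7%. B cells gave 26.3% and 32.6% thinned, and T cells 30.5% and 41.2%, so the explosion gated cells were not above T cells by the Jun share. Other AP-1 genes differed from Jun in this. Thinned shares for Junb were 77.8% and 80.3% in gated cells, against 24.5% and 37.1% in T cells. Fosb gave 80.6% and 73.8% against 31.0% and 45.4%, and Fos 86.1% and 60.7% against 39.9% and 42.3%. Tnfaip3, an NF-kB inhibitor, had a ratio of 1.82 (1.34 to 2.48) and was not called.

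Of 8 genes of MHC class II presentation, 4 of 6 tested were called higher in explosion with all cells and 4 of 4 without the mixed barcodes, beside 15.8% and 7.23% of all genes. Cd74, the invariant chain, had 4 UMIs in control and 30 in 18 explosion cells, a ratio of 7.95 (2.80 to 31.1). RT1-Ba had 0 and 12 UMIs, at least 4.24-fold higher, with 10 of the 12 in 3 cells. RT1-Da had 0 and 11 UMIs, at least 3.89-fold higher, spread over 11 cells, and RT1-Db1 had 1 and 10. The T cell ratio of Cd74 was 3.66 (2.46 to 5.30), and the B cell gene Ms4a1 had 1 UMI in the explosion gated cells. Some myeloid genes were also higher in explosion: the neutrophil and monocyte list, which holds Ccr2, summed to 108 CPM over all control cells and 930.2 in explosion. That control sum includes the mixed barcodes, and Ccr2 gave 28 of the explosion UMIs. With all cells 2 of 3 tested genes of the list were called higher, with a median log2 ratio of 3.99 beside 0.62. Leaving the mixed barcodes out, 2 of 2 were, with a median of 2.82 beside 0.39. Without the mixed barcodes, Csf1r had 0 and 9 UMIs and Fcnb 0 and 9. The 9 Fcnb UMIs lay in 4 cells, with 8 of them in 3 cells. The part of these myeloid genes in the MHC class II values was not tested.

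Among 20 homing and residency genes, 6 of 12 tested were called higher with all cells and 2 of 12 without the mixed barcodes, beside 15.8% and 7.23% of all genes. Ccr2, a chemokine receptor of monocytes and some lymphocytes, had 4 UMIs in control and 28 in 22 explosion cells, a ratio of 7.42 (2.60 to 29.1), against 6.35 (3.07 to 12.2) in T cells. Cd44, the hyaluronan receptor, had 11 and 34 UMIs, a ratio of 3.28 (1.62 to 7.17), against 2.69. The residency gene Cd69 stood at 825 and 493 CPM, a ratio of 0.598 (0.384 to 0.920) that was not called. Of the costimulatory and inhibitory genes, the inhibitory receptor Cd200r1 had 2 and 17 UMIs, a ratio of 9.01 (2.14 to 80.4) against 6.22 in T cells, and was the 1 called of 4 tested; with all cells 3 of 5 were called. Cd28 had 8 and 23 UMIs, a ratio of 3.05 (1.32 to 7.88). Birc3 was the 1 survival gene called of 6 tested, against 4 of 8 with all cells.

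The median respiratory chain gene was lower in explosion under both readings. With all cells, 14 of 24 were called lower, beside 4.26% of all genes, with a median log2 ratio of -1.63 beside 0.62. Without the mixed barcodes, 6 of 23 were called lower, beside 4.63%, with a median of -1.43 beside 0.39. Cox7a2 had 16 and 2 UMIs and Atp5po 19 and 2, while Atp5mc2 was level, at 492 and 451 CPM. T cells showed the same direction, with 10 of 24 called lower, beside 1.68% of all genes, and a median of -1.21 beside 0.77. Proliferation genes were too few to read: Mki67 had 9 UMIs in 1 control cell, which was a mixed barcode, and 1 UMI in explosion.

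The gated cells also differed among themselves by which gate genes were seen. Cells with Gata3 and Il2ra and no Il1rl1 numbered 6 in control without the mixed barcodes and 15 in explosion. In control, 3 of the 6 had a Cd4 UMI, 1 a Rora UMI and 4 an Il7r UMI. In explosion, 4 of the 15 had Rora, 1 had Il7r and 2 had Cd4. Of cells with all 3 gate genes, 0 of 16 in control and 1 of 42 in explosion had Cd4, Rora was seen in 4 and 22, Il7r in 10 and 15, and Hpgds in 9 and 22. These are small counts from cells that differ in depth, and no further split was made.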

How the data were processed

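The deposited files hold UMI counts per gene and barcode, which the authors made with Cell Ranger (version 6.1.1 per the submitters' processing notes, 7.1.0 per the file headers) after bcl2fastq 2.20; the notes name the builds mRatBN7.2 and rn6. Whole-library depth was 139486248 UMIs in control and 9017416 in explosion. From these counts, barcodes with at least 200 genes were gated, UMIs were summed over gated cells per library, and CPM ratios were given exact conditional 95% intervals (SciPy 1.17.1, numpy 2.4.6). Shares have exact Clopper-Pearson intervals. Log2 ratios had 0.5 added to each sum. Genes needed 10 UMIs over both sums. Calls need an interval past 1.5-fold; they are not tests. Barcodes were thinned to 500 UMIs with a fixed seed for shares at equal depth. This was done before the gate for the share of barcodes in it, and after the gate for shares of gated cells with a UMI. The calculations were tested on simulated data.

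The members and gene lists were chosen with earlier results of these data known. T cells had 2 or more Cd3 genes; B cells had at least 2 genes of a short B cell list and no Cd3; NK cells had at least 2 of Ncr1, Prf1, Klrd1, Nkg7 and Gzmb and no Cd3 or Cd79a. Genes of the identity, product and receptor lists could all be named; of other lists, the 3 highest and 3 lowest ratios; across all genes, the 12 called genes per direction furthest from 1, with 20 UMIs where higher. Cd44, Col3a1, Csf1r, Fcnb, Fosb, Junb, Foxp3, S1pr1, single marker genes and the mixed-barcode mark were chosen after their values were seen. Mitochondrial genes with the symbol prefix mt-, and ribosomal protein, hemoglobin and identifier-only genes, were not named across all genes. Transfer RNA symbols without that prefix, such as Trnk and Trnv, were not removed. No clustering was run. Some listed genes are not reported here.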

Additional observations from a re-analysis of the deposited data

How the results depend on the processing

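With 1 library per group and low counts, depth limits every value here, and leaving out a replicate was not possible. No paired analysis was possible because the groups share 1 replicate number only and each is 1 library. The explosion minus control share kept its direction under all 8 alternatives and moved beyond its counting interval under 1, all 3 gate genes, to 0.252 points. Genes called higher in explosion (784) numbered 362 when ratios were centred on the median gene, 206 without mixed barcodes, 62 with all 3 gate genes, 22 when cells with 3 or more UMIs of any of 6 other-class lists were left out (8 control cells remained), and 5 after thinning to 500 UMIs before the gate. Genes called lower (211) numbered 489, 132, 84, 81 and 48 under the same settings, 130 with at least 500 UMIs in both libraries, and 365 with the CPM total that leaves out ribosomal protein, mitochondrial and hemoglobin genes, Scgb1a1 and Rn45s. Against T cells in control, 275 genes were called higher without mixed barcodes (158 with them) and 73 lower (122); 65 were lower when 1 Cd3 gene defined T cells. The immediate early and NF-kB list had a median log2 ratio of 1.13, which turned to -0.86 after thinning and -0.13 with all 3 gate genes, and was 0.0183 without cells of other-class lists, 0.00533 without mixed barcodes, 0.75 with the reduced CPM total, 0.51 when centred and 0.23 when each cell was scaled and averaged. Single genes called with all cells that turned were Il7r (-0.58 thinned, -0.15 without cells of other-class lists), Il2rg (-0.0535 with all 3 gate genes) and Junb (-0.96 thinned, -0.61 with all 3 gate genes, -0.68 without cells of other-class lists, -0.53 without mixed barcodes, -0.0704 averaged). Ramp1, not called with all cells (0.33), was -1.22 with all 3 gate genes, -0.81 without cells of other-class lists, -0.65 without mixed barcodes, -0.30 averaged, -0.29 centred and -0.0475 with the reduced CPM total. Fewer cells and UMIs were summed under thinning, all 3 gate genes and the exclusions; the cause of the changes was not tested. The stricter T cell exclusion could use Cd4, Cd8a, Cd8b and Foxp3 only. The exclusion of mixed barcodes was chosen after seeing the data.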
